A study of Mus musculus with 27 samples.

Results

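The clock output transcription factors are a small set of regulators that pass the timing of the circadian oscillator on to other genes. They were followed in the mouse colon as 8 genes, Dbp, Tef, Hlf, Nfil3, Ciart, Bhlhe40, Bhlhe41 and Rora, chosen by name, and all 8 were found among the 46078 gene rows of the count tables. RNA was sequenced from epithelium scraped from the colon of 27 male C57BL/6 mice, gavaged every 4 days over 28 days (7 gavages, from an age of 28 to 56 days). The 3 vehicle mice received sesame oil, and the other 24 received TCDD in sesame oil, in 8 groups of 3 mice. The 4 lower doses were 0.01, 0.03, 0.1 and 0.3 μg/kg, and the 4 higher ones were 1, 3, 10 and 30 μg/kg. TCDD is a persistent dioxin and a potent ligand of the aryl hydrocarbon receptor (AhR). The study's methods place gavage at lights on and collection within the first 3 h of the light phase, and the time at which each mouse was collected was not given in the sources used here.

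The oscillator is a feedback loop. The activators CLOCK (or its relative NPAS2) and BMAL1, the product of Arntl, bind E-box sequences and drive the Per, Cry, Nr1d1 and Nr1d2 genes, whose products shut the activators down again. Dbp, Tef and Hlf encode the PAR bZIP activators, which bind D-box sequences in target genes. Nfil3 encodes a bZIP repressor of the same sequences and normally cycles out of step with Dbp. Ciart, Bhlhe40 and Bhlhe41 encode repressors that act on CLOCK and BMAL1, and Rora encodes a nuclear receptor that activates Arntl in competition with the NR1D1 repressor. Transcripts of most of these genes change within hours in many tissues, the gut among them.

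Upstream sequence is shown first because CACGTG, the E-box, is how the oscillator is known to drive several of these genes, and because GCGTG is the core of the dioxin response element that AhR binds. RefSeq windows on GRCm38.p6, from 250 bases before a transcription start to 50 after it, were found for 7 of the 8 members (8 windows, of which 2 belonged to Tef). The windows were searched on both strands for CACGTG, for the D-box letters TTATGTAA and TTACGTAA, for AGGTCA, to which ROR and NR1D proteins bind, and for GCGTG. No motif of these contains another. In the stretches below, read 5′ to 3′ and cut where an annotated GENCODE exon begins, capitals mark CACGTG, and GCGTG or its complement CACGC.
Ciart, chr3:95882252-95882478, minus strand: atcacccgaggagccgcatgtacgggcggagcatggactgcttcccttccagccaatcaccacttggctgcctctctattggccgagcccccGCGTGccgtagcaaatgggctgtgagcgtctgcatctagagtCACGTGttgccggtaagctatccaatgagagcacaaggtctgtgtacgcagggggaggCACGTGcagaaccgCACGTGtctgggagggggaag
Tef, chr15:81811164-81811413, plus strand: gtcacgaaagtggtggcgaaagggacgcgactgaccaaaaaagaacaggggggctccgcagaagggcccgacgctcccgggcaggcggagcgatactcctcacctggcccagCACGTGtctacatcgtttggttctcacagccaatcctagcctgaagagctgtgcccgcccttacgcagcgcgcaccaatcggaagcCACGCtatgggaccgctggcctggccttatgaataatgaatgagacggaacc
Bhlhe41, chr6:145865559-145865670, minus strand: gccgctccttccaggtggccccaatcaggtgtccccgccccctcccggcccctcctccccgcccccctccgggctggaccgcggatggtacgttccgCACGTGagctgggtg
Dbp, chr7:45704997-45705087, plus strand: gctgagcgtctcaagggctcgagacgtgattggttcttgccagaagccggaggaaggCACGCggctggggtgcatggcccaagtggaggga
Nfil3, chr13:52981074-52981289, minus strand: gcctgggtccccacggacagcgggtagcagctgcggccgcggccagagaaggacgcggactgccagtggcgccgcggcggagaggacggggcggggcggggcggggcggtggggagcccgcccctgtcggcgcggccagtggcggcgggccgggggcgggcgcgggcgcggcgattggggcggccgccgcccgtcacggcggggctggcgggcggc
An E-box was found in 4 of the 8 windows (both of Tef, those of Ciart and Bhlhe41), against 7.15% of all 32851 windows, and Ciart held 3 of them, at 116, 58 and 44 bases before its start. The D-box letters were found in 0 of the 8 windows and in 1.06% of all windows. GCGTG was found in 6 of the 8 windows against 32.4% of all, and AGGTCA in 1 (Nfil3, 12 bases before the start) against 16.3%. These are matches of letters and show no binding.

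The 8 loci, given on GRCm38 with GENCODE M21 genes, lie on 7 chromosomes, and counts were summed over the exons of each gene. Dbp (ENSMUSG00000059824, chr7:45705088-45710203, plus strand) shares 539 bases of exon with Sphk2 on the other strand. Whether the counting used strand was not given in the sources used here. Sphk2 held 669 to 1191 reads in each mouse and differed from vehicle at 30 μg/kg by 0.05 on the log2 scale, where Dbp held 351 to 994 reads. Tef (ENSMUSG00000022389) lies at chr15:81802421-81826863 on the plus strand, Hlf (ENSMUSG00000003949) at chr11:90336536-90390895 on the minus strand, and Nfil3 (ENSMUSG00000056749) at chr13:52967209-52981073 on the minus strand. Ciart (ENSMUSG00000038550) lies at chr3:95878503-95882251 on the minus strand and Rora (ENSMUSG00000032238) at chr9:68653786-69388246 on the plus strand. Bhlhe40 (ENSMUSG00000030103, chr6:108660629-108666925, plus strand) and Bhlhe41 (ENSMUSG00000030256, chr6:145858243-145865558, minus strand) lie on the same chromosome. The antisense genes with a row that overlap Tef, Ciart, Bhlhe40 and Rora held at most 31 reads in any mouse. Bhlhe41 shares 1280 bases of exon with Gm43909 on the other strand, a gene whose counts were not analysed here, so the 1 to 53 reads of Bhlhe41 in a mouse are uncertain.

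Gene counts totalled 9305441 to 14371035 per mouse (median 11651026), and levels are given as CPM, the reads of a gene scaled to the library's total with TMM factors. The label of epithelium was checked against cell type markers, and all 8 epithelial markers (Epcam, Vil1, Cdx2, Cdh1, Krt8, Krt18, Krt19 and Krt20) were read in every mouse and summed to 7408 to 11060 CPM. The 11 immune markers summed to 27.9 to 63.3 CPM, the 11 of smooth muscle and stroma to 73.4 to 791 CPM, the 5 of adipocytes to 6.69 to 150.2 CPM and the 7 of enteric neurons and glia to 2.09 to 11.1 CPM. Of the last list S100b was at 0 in 12 mice and Sox10 in 8, and the adipocyte gene Lep was at 0 in 5. Cyp1a1, the best known AhR target, marked the exposure with 0 to 2 reads per mouse from vehicle to 0.1 μg/kg, 5 to 7 at 0.3 μg/kg and 39 to 74 at 1 μg/kg. It held 550 to 1630 reads in mice given 3 μg/kg, 10468 to 15749 in those given 10 μg/kg and 23969 to 29287 in those given 30 μg/kg. The barcodes of the libraries repeated after 16 mice. The first index set held the mice at 0 to 0.3 μg/kg and mouse 41 (1 μg/kg), and the second held the other 11, mice 43 and 44 (1 μg/kg) and those at 3 to 30 μg/kg. Mouse 14, in the 0.01 μg/kg group, stood apart from the other mice of its group in most members, so results are given with and without it.

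Dbp, the founding PAR bZIP activator, was the member that changed most. In the vehicle mice it stood at 1.77, 2.00 and 1.37 CPM. At 0.01 μg/kg the level was 2.74, 2.53 and, in mouse 14, 60.0 CPM, at 0.03 μg/kg 1.68, 2.67 and 3.91 CPM, at 0.1 μg/kg 4.40, 5.94 and 3.33 CPM, and at 0.3 μg/kg 12.2, 16.7 and 14.7 CPM. With mouse 14 aside, the 3 mice at 0.3 μg/kg were above every mouse at a lower dose. From 1 μg/kg the level was 88.0, 43.9 and 55.3 CPM, at 3 μg/kg 76.3, 55.9 and 75.4 CPM, at 10 μg/kg 88.8, 65.8 and 71.7 CPM, and at 30 μg/kg 71.5, 29.4 and 55.9 CPM. All 12 mice at 1 to 30 μg/kg were above all mice at 0 to 0.3 μg/kg other than mouse 14, and they overlapped among themselves. In counts, Dbp went from 14 to 19 reads in vehicle mice to 351 to 1111 reads at 1 μg/kg and above.

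Tef, whose product binds the same D-box, followed the same doses with a smaller amplitude. It stood at 19.4, 22.1 and 17.6 CPM in vehicle mice, and at 14.9, 18.3 and (mouse 14) 124 CPM at 0.01 μg/kg. The 6 mice at 0.03 and 0.1 μg/kg held 13.4 to 24.1 CPM and overlapped the vehicle range. At 0.3 μg/kg Tef reached 40.1, 51.9 and 49.6 CPM, and at 1 μg/kg 160.9, 117 and 138.6 CPM. Its level was 146.1, 132 and 159.1 CPM at 3 μg/kg, 169.5, 164.5 and 163.9 CPM at 10 μg/kg and 178.4, 188.4 and 184.4 CPM at 30 μg/kg. The 3 mice at 30 μg/kg were the 3 highest of all 27, so that Tef was the only activator whose highest level fell at the highest dose in every mouse. Hlf, the rarest of the PAR bZIP genes, had 2 to 4 reads in each vehicle mouse (0.332 ± 0.105 CPM, SD, n = 3), which makes its folds imprecise. It reached 1.86 ± 1.42 CPM at 1 μg/kg, 3.13 ± 0.575 at 3, 2.27 ± 0.301 at 10 and 3.82 ± 1.70 at 30 μg/kg (SD, n = 3 each). At 1 μg/kg the spread came from mouse 41, with 44 reads against 8 and 12 in the other mice of that dose.

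Nfil3, the repressor, moved the other way. Its level in vehicle mice was 12.4, 12.1 and 13.1 CPM. It was 14.9, 9.76 and (mouse 14) 2.09 CPM at 0.01 μg/kg, 6.34, 6.63 and 6.49 CPM at 0.03 μg/kg, 9.52, 8.22 and 5.33 CPM at 0.1 μg/kg and 6.96, 4.04 and 5.33 CPM at 0.3 μg/kg. All mice at 0.03, 0.1 and 0.3 μg/kg were below all vehicle mice. At 0.03 μg/kg Nfil3 was the only member whose groups did not overlap in the lower direction, where 6.55% of all genes tested did the same and 6.75% did so in the higher direction (0 members). From 1 μg/kg the level was 0.950, 1.78 and 1.49 CPM, at 3 μg/kg 1.93, 1.89 and 1.47 CPM, at 10 μg/kg 1.195, 3.08 and 1.49 CPM and at 30 μg/kg 1.29, 2.01 and 2.59 CPM. No mouse at 1 to 30 μg/kg overlapped one at 0 to 0.3 μg/kg other than mouse 14, on counts of 12 to 36 against 50 to 152 reads.

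Among the repressors of CLOCK and BMAL1, Ciart changed most. It had 0.492, 0.211 and 0.884 CPM in vehicle mice, 0.489, 0.697 and (mouse 14) 10.7 CPM at 0.01 μg/kg, and 0.285 to 0.693 CPM in the 6 mice at 0.03 and 0.1 μg/kg. At 0.3 μg/kg it was 0.671, 2.26 and 1.63 CPM, so that 1 of 3 mice lay in the vehicle range. From 1 μg/kg the levels were 12.0, 6.11 and 10.2 CPM, at 3 μg/kg 9.93, 8.58 and 15.4 CPM, at 10 μg/kg 14.8, 15.2 and 11.8 CPM and at 30 μg/kg 10.4, 6.61 and 10.4 CPM. Bhlhe40, the most abundant member per kb, changed least among those that changed, from 122.8 ± 12.6 CPM in vehicle mice to 189.1 ± 3.46 at 1 μg/kg, 178.1 ± 11.7 at 3, 188.5 ± 22.6 at 10 and 189.3 ± 16.9 at 30 μg/kg (SD, n = 3 each). Bhlhe41, its relative, had 1 to 6 reads in each vehicle mouse (0.395 ± 0.256 CPM) and 10 to 36 at 30 μg/kg (2.15 ± 1.16 CPM, SD, n = 3). At 1 μg/kg mouse 41 held 4.198 CPM of it against 0.777 and 1.39 in the other 2, where the mice at 0.1 μg/kg had 0.594 to 1.024 CPM. Without mouse 41 the log2 difference from vehicle at 1 μg/kg went from 2.42 to 1.425 for Bhlhe41 and from 2.48 to 1.61 for Hlf. In the edgeR fit described below neither was called with or without mouse 41. With all mice DESeq2 called Hlf at this dose (0.436% of all genes), and edgeR without a filter on low counts called both (0.194%). Rora stayed between 4.99 and 11.8 CPM in all 27 mice, with group means from 5.84 to 7.89 CPM in no order of dose. In bulk RNA, a lower share of cells that carry a transcript and less of it per cell cannot be told apart.

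**Figure D1:**
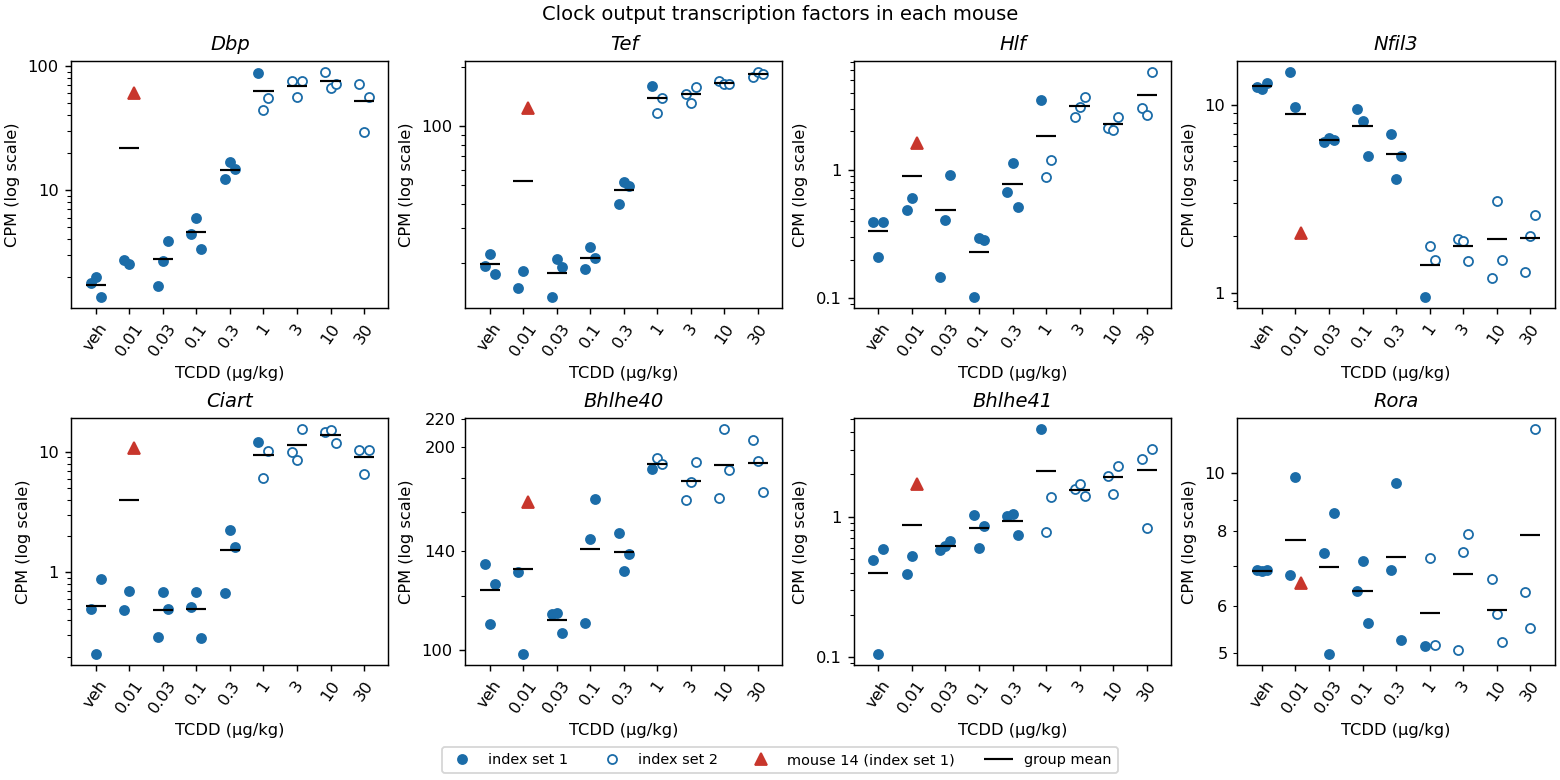
Level of each member in every mouse (CPM, log axis) against TCDD dose (μg/kg, veh is sesame oil), with filled points for the first index set, open points for the second, a triangle for mouse 14 and a line at the group mean (n = 3). Dbp, Tef, Hlf and Ciart lie higher in all 3 mice at 1 μg/kg than in any at 0.1 μg/kg, Bhlhe41 does so in 2 of the 3, Nfil3 falls to 0.950 to 3.08 CPM from 1 μg/kg, and mouse 14 sits with the high doses for all of these. For Hlf, mouse 43 (1 μg/kg, 0.888 CPM) lies below mouse 20 (0.03 μg/kg, 0.916 CPM) and mouse 34 (0.3 μg/kg, 1.13 CPM).

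Per kb of exon, the scale on which genes can be compared, Bhlhe40 was the highest member in vehicle mice (26.1 ± 2.68 CPM per kb, SD, n = 3), then Nfil3 (6.18 ± 0.237) and Tef (2.50 ± 0.292), each apart from the next. Dbp (0.573 ± 0.106) and Rora (0.526 ± 0.00138) overlapped, Ciart followed at 0.234 ± 0.149, and Bhlhe41 (0.0589 ± 0.0381) and Hlf (0.0497 ± 0.0158) overlapped at the bottom. At 30 μg/kg the order was Bhlhe40 (40.2 ± 3.60), Tef (23.4 ± 0.640), Dbp (17.5 ± 7.12), Ciart (4.04 ± 0.967) and Nfil3 (0.969 ± 0.319). Tef and Dbp overlapped there, as did each neighbouring pair from Nfil3 down to Rora, Hlf and Bhlhe41. Nfil3 thus moved from the second place to the fifth, below both abundant activators and Ciart.

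The balance of activators to repressor was taken in each mouse as the log2 ratio of CPM per kb to that of Nfil3, as a description without a test. In vehicle mice Nfil3 exceeded all 3 activators, with ratios of −3.45 ± 0.332 for Dbp, −1.31 ± 0.2201 for Tef and −7.01 ± 0.480 for Hlf (SD, n = 3). At 0.1 μg/kg the Dbp ratio was −1.32 ± 0.329 and the Tef ratio −0.46 ± 0.518. At 0.3 μg/kg both were above 0 in all 3 mice, at 0.88 ± 0.618 for Dbp and 1.19 ± 0.583 for Tef. They reached 4.90 ± 0.976 and 4.70 ± 0.689 at 1 μg/kg, and stayed at 4.73 ± 0.394 and 4.42 ± 0.334 at 3, 4.84 ± 0.913 and 4.598 ± 0.732 at 10, and 4.13 ± 0.985 and 4.65 ± 0.478 at 30 μg/kg. Dbp and Tef thus differed in their balance to Nfil3 in vehicle mice and overlapped from 0.3 μg/kg. Hlf approached Nfil3 but stayed below it, at −1.54 ± 1.503 at 1 and −0.79 ± 0.449 at 30 μg/kg, and only mouse 41 had a ratio above 0 (0.15).

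**Figure D2:**
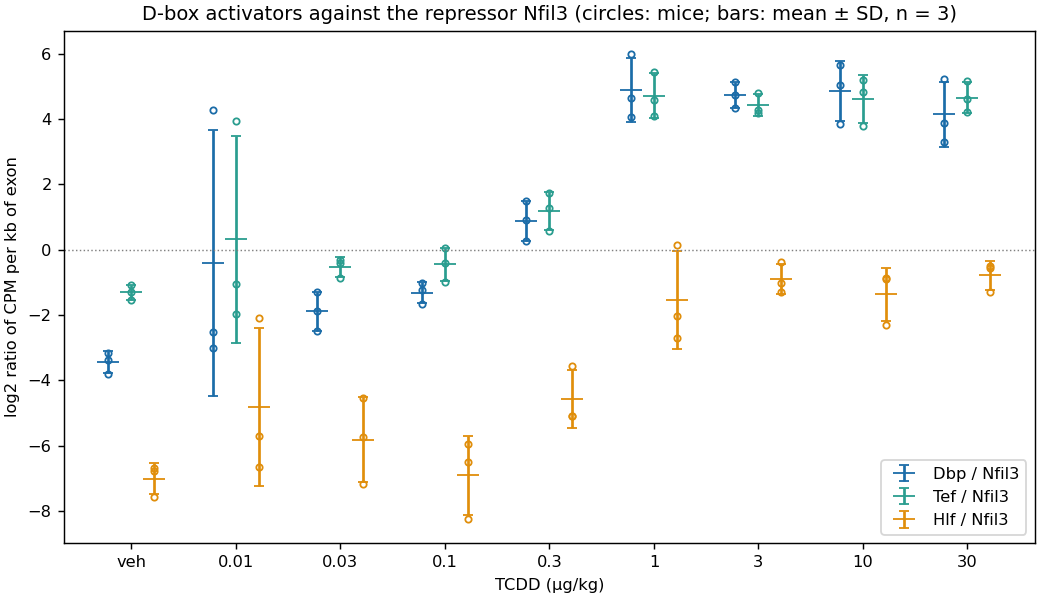
Log2 ratio of CPM per kb of exon of Dbp, Tef and Hlf to Nfil3 (vertical axis, 0 is equal level) by TCDD dose in μg/kg, with a circle per mouse and bars for the mean ± SD (n = 3). Dbp and Tef cross 0 at 0.3 μg/kg and lie near 4 to 5 from 1 μg/kg, and the wide bars at 0.01 μg/kg come from mouse 14.

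Differences from vehicle were tested in 1 edgeR quasi-likelihood fit of all 27 mice, adjusted over 16496 genes after Benjamini and Hochberg, and a gene was called where it changed at least 1.5-fold with an adjusted p below 0.05. All 8 members passed the filter on low counts. At 0.01, 0.03, 0.1 and 0.3 μg/kg 0 members were called, as were 0% of all genes tested at each of these doses. At an unadjusted p under 0.05 there were 3 members at 0.01 μg/kg (Dbp, Tef and Ciart, against 6.35% of all genes), 1 at 0.03 (Nfil3, against 4.64%), 0 at 0.1 (6.37%) and 3 at 0.3 μg/kg (Dbp, Tef and Nfil3, against 5.19%). Without the filter on low counts Dbp was called at 0.01 μg/kg, against 0.00656% of all genes, and in a fit of vehicle and 0.3 μg/kg alone Dbp and Tef were called, against 0.02%. DESeq2 called 1 at 0.01 μg/kg (Dbp, against 0.0121% of all genes) and 0 at the other 3 doses, and limma voom, read at a posterior probability of 0.8 or more, called 0 at all 4.

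At 1 μg/kg 4 members were called, 3 of them higher against 0.139% of all genes and 1 lower against 0.0606%. Dbp rose 36.3-fold (log2 fold change 5.18, SE 0.84, adjusted p = 0.00628), Tef 7.06-fold (2.82, SE 0.46, adjusted p = 0.00702) and Ciart 17.5-fold (4.13, SE 0.79, adjusted p = 0.0223), and Nfil3 fell 9.05-fold (−3.18, SE 0.47, adjusted p = 0.00364). Leaving out any vehicle mouse, or mouse 41 or 44, changed the calls at this dose. Without vehicle mouse 02 or 04 only Nfil3 was called, with Dbp at a log2 fold change of 5.22 (adjusted p = 0.0662) or 5.05 (adjusted p = 0.0652), and without mouse 03 Dbp, Tef and Nfil3 were called. In the fits without mice 02, 04 and 03, in this order, 0.0178%, 0.0416% and 0.113% of all genes were called. Without mouse 41 or mouse 44 of the treated group Ciart lost its call (adjusted p = 0.09 or 0.0717) and Dbp, Tef and Nfil3 were called, against 0.0535% and 0.0653% of all genes. By the posterior probability of limma voom Tef alone passed at 1 μg/kg (0.127% of all genes), and without the filter on low counts 7 members were called, all but Rora (0.194%). DESeq2 called 6 at this dose, all but Bhlhe41 and Rora (0.436%). At 3 μg/kg 5 members were called, 4 higher (0.303% of all genes) and 1 lower (0.394%), with Hlf added at 9.11-fold (3.19, SE 0.59, adjusted p = 0.00598). Limma voom passed Dbp, Tef and Nfil3 at both 3 and 10 μg/kg (0.321% and 0.576% of all genes) and not Hlf or Ciart. At 10 μg/kg there were 5 higher (0.812% of all genes) and 1 lower (0.97%), with Bhlhe40 added at 1.54-fold (0.62, SE 0.14, adjusted p = 0.0184). At this dose Hlf lost its call when any vehicle mouse was left out, and Bhlhe40 when vehicle mouse 03 or 04 or mouse 58 was.

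At 30 μg/kg 7 of the 8 members were called, 6 higher against 2.95% of all genes and 1 lower against 3.21%. Dbp was 30.4-fold higher than vehicle (4.93, SE 0.84, adjusted p = 0.000683), Ciart 16.8-fold (4.07, SE 0.78, adjusted p = 0.00205), Hlf 11.1-fold (3.47, SE 0.58, adjusted p = 0.000602) and Tef 9.33-fold (3.22, SE 0.47, adjusted p = 0.000142). Bhlhe41 was 5.26-fold higher (2.39, SE 0.62, adjusted p = 0.0163) and Bhlhe40 1.54-fold (0.62, SE 0.14, adjusted p = 0.0078). Both of these calls were lost without vehicle mouse 03, where 4.36% of all genes were called, Bhlhe41 also without mouse 67 and Bhlhe40 also without mouse 65. Nfil3 was 6.42-fold lower (−2.68, SE 0.44, adjusted p = 0.000481). Rora was not called, with a log2 difference of 0.19 and a 95% interval from −0.37 to 0.75. In all 6 genes called higher the 3 mice were above all 3 vehicle mice, as in 14.5% of all genes, and in Nfil3 below them, as in 15.2%. The median log2 fold change was 2.81 over the 8 members and −0.0022 over all genes tested. By the posterior probability of limma voom 3 members passed at 30 μg/kg, Tef, Hlf and Nfil3, against 1.32% of all genes. Between vehicle and 30 μg/kg the summed epithelial markers went from 8059 to 9029 CPM to 8542 to 11060 CPM, those of smooth muscle and stroma from 145.1 to 181.9 to 155.1 to 791 CPM, those of adipocytes from 6.69 to 24.7 to 21.9 to 150.2 CPM, those of neurons and glia from 2.16 to 3.74 to 2.68 to 11.1 CPM and the immune markers from 41.2 to 47.6 to 27.9 to 47.3 CPM. Each of these pairs of ranges overlapped. At other doses some did not. The epithelial sum lay wholly above vehicle at 1 μg/kg (9476 to 10420 CPM), 3 μg/kg (9560 to 9989) and 10 μg/kg (9838 to 10510). The sum of smooth muscle and stroma did so at 0.3 μg/kg (189.0 to 437.9 CPM), 3 μg/kg (184.3 to 384.2) and 10 μg/kg (299.4 to 409.9). So did that of adipocytes at 0.01 μg/kg (47.6 to 105.4 CPM) and that of neurons and glia at 0.3 μg/kg (4.22 to 5.11 CPM). The part of these cell types in the members' changes was not tested.

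**Figure D3:**
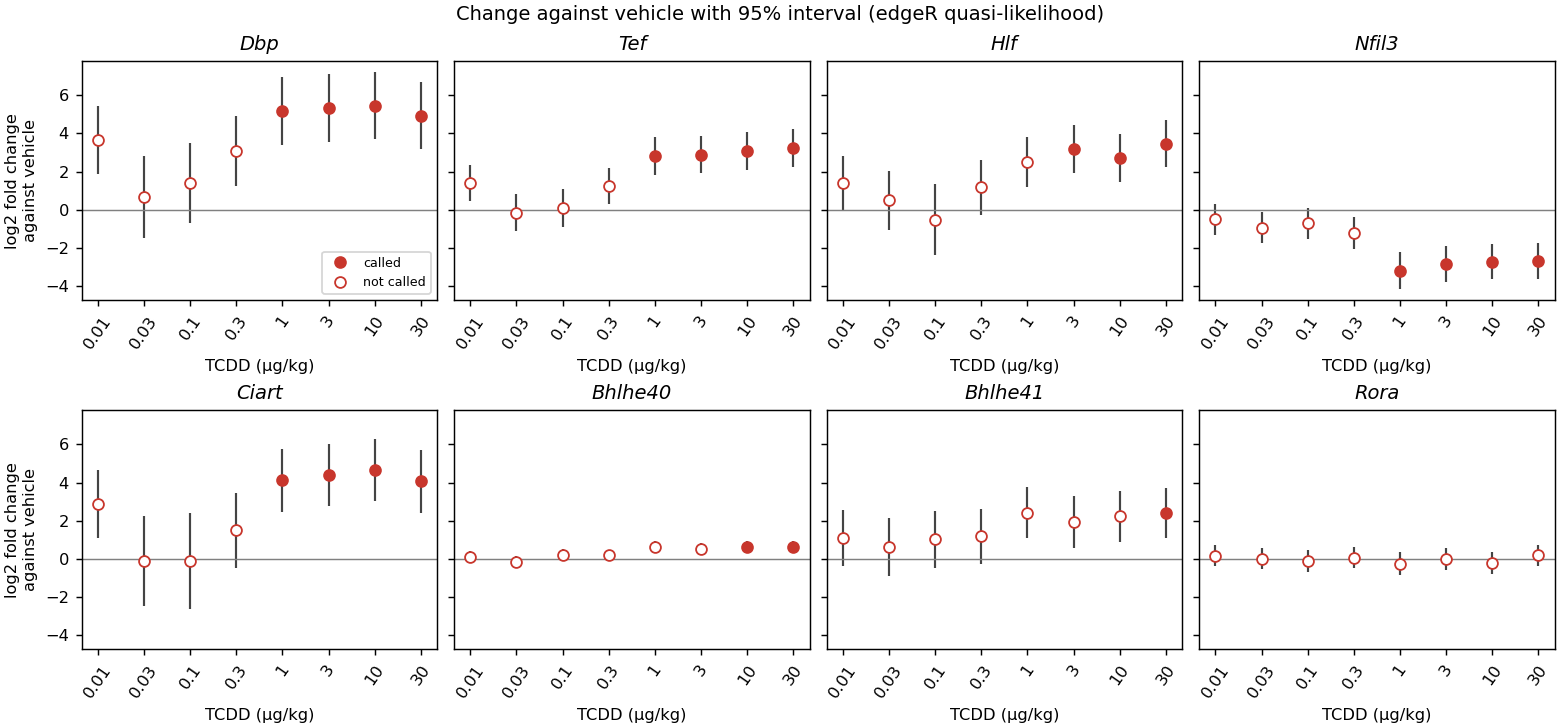
Log2 fold change of each member against vehicle (vertical axis, line for the 95% interval, n = 3 mice a group) at the 8 TCDD doses in μg/kg, from edgeR, with filled points where the gene was called. Calls begin at 1 μg/kg for Dbp, Tef, Ciart and Nfil3, at 3 for Hlf, at 10 for Bhlhe40 and at 30 μg/kg for Bhlhe41, and Rora lies near 0 throughout.

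The calls at the lower doses depended on mouse 14. It carried 632 Dbp reads against 28 and 29 in mice 09 and 11 of its group, and 0 reads of Cyp1a1, where all mice at 1 μg/kg or more held at least 39. Its Dbp level was 22.8 times the mean of the other mice at 0.01 μg/kg, Ciart 18.1 times, Tef 7.48 times and Nfil3 0.17 times, each inside the range of the 12 mice at 1 to 30 μg/kg and outside that of the 14 other mice at 0 to 0.3 μg/kg. Rora, at 6.55 CPM, did not stand apart. In the core loop the same mouse had 141.9 CPM of Nr1d1 against 32.8 and 44.9, and 11.8 CPM of Arntl against 71.5 and 51.4. Its summed markers lay within the range of the other 26 mice for all 5 cell type lists (smooth muscle and stroma 134.2 CPM, immune 38.2, epithelium 8453). Without mouse 14 no member was called at 0.01 μg/kg, and the log2 difference of Dbp there was 0.62, against 3.66 with it.

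Without mouse 14, 2 members were called at 0.3 μg/kg, Dbp (log2 fold change 3.08, adjusted p = 0.000384) and Tef (1.26, adjusted p = 0.000243), where 0.0237% of all genes, 4 in all, were called. With the index set as a term as well the same 2 members and the same share were called. Vehicle and 0.3 μg/kg both lie in the first index set, so the term could not alter these differences. Nfil3 was not called, at −1.20 with an adjusted p of 0.433. With all mice in the fit the same differences had adjusted p-values of 0.937. At 0.3 μg/kg 4 members lay wholly above vehicle (Dbp, Tef, Hlf and Bhlhe41), as did 6.12% of all genes, and 1 wholly below (Nfil3), as did 6.23%. Without mouse 14, 5 members were called at 1 μg/kg (0.261% of all genes), with Bhlhe40 added, and 7 at 10 μg/kg (1.84%), with Bhlhe41 added. Neither addition was particular to mouse 14. Bhlhe40 was also called at 1 μg/kg without mouse 11 or mouse 25 (0.261% and 0.22% of all genes), and Bhlhe41 at 10 μg/kg without mouse 09, 41, 43 or 66 (1.86%, 1.78%, 1.68% and 1.78%). The adjusted p of Dbp at 30 μg/kg was then 6.96e-09.

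Steps between neighbouring doses were tested to see where the change was made. With all mice, 0 members were called at any of the 7 steps, of which 3 against 1, 10 against 3 and 1 against 0.3 μg/kg had 0.0242%, 0.0485% and 0.00606% of all genes called and the other 4 had 0%. At the step from 0.3 to 1 μg/kg 7 members had an unadjusted p under 0.05, as did 6.01% of all genes, with Ciart 6.20-fold higher (2.63, SE 0.64, adjusted p = 0.387), Dbp 4.30-fold higher (2.105, SE 0.64, adjusted p = 0.548), Tef 2.94-fold higher (1.56, SE 0.43, adjusted p = 0.494) and Nfil3 3.93-fold lower (−1.98, SE 0.49, adjusted p = 0.387). Without mouse 14, these 4 were called at that step (adjusted p = 0.000485 for Dbp and Ciart, 1.92e-06 for Tef and 0.00942 for Nfil3), among 9 genes or 0.0534% of those tested. Without it Tef was also called from 0.1 to 0.3 μg/kg (1.15, adjusted p = 0.00107), the only gene of all tested (0.00594%). In the 2-group fit of 0.3 and 1 μg/kg, which leaves mouse 14 out by construction, Dbp and Tef were called, against 0.0329% of all genes. The steps from 1 to 30 μg/kg gave 0 calls with and without mouse 14.

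Between 3 and 30 μg/kg, doses that lie in the same index set, 0 members were called, against 0.461% of all genes. At an unadjusted p under 0.05 there were also 0 with all mice in the fit, against 11% of all genes. Without mouse 14, which is in neither group, Tef alone of the members passed that level (log2 difference 0.33) and was not called. No share of all genes at that level is given for the fit without mouse 14. The log2 difference of 30 against 3 μg/kg was −0.40 for Dbp (95% interval −1.66 to 0.85), 0.33 for Tef (−0.54 to 1.21), 0.14 for Nfil3 (−0.92 to 1.21) and −0.31 for Ciart (−1.43 to 0.81). Across the same doses Cyp1a1 rose 26.5-fold (4.73, SE 0.28, adjusted p = 1.05e-10). A p that misses the threshold does not show that the 2 doses acted alike. With all mice in the fit the intervals reach a change of 1 on the log2 scale in the lower direction for Dbp and Ciart and in the higher direction for Tef and Nfil3. Without mouse 14 they were narrower, −0.95 to 0.14 for Dbp, 0.055 to 0.61 for Tef, −0.58 to 0.87 for Nfil3 and −0.92 to 0.30 for Ciart.

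Over dose rank (0 for vehicle to 8 for 30 μg/kg) 7 members had a slope past an adjusted p of 0.05, 6 upwards against 11.8% of all genes and 1 downwards against 11.6%. Per step the slope was 0.52 ± 0.10 for Dbp, 0.42 ± 0.058 for Tef, 0.43 ± 0.060 for Hlf, 0.50 ± 0.094 for Ciart, 0.27 ± 0.052 for Bhlhe41, 0.097 ± 0.015 for Bhlhe40 and −0.39 ± 0.046 for Nfil3 (log2 ± SE, n = 27). Rora had a slope of −0.008 ± 0.023. Without mouse 14 the slope of Dbp was 0.81, the same 7 members had one, and 21.9% of all genes did in either direction. Within the first index set 0 members had a slope (Dbp 0.52, adjusted p = 0.607), against 0.00589% of all genes. Without mouse 14 there were 4 in that set, against 0.0531%, Dbp (1.10, adjusted p = 9.59e-05), Tef (0.49), Ciart (0.89) and Bhlhe41 (0.57). Within the second index set Tef was the only member with a slope (0.18, adjusted p = 0.00375), against 3.06% of all genes, and those of Nfil3 and Rora turned sign (0.088 and 0.093). With the index set as a term, 0 members had a slope in all 27 mice (0.0667% of all genes) and 5 without mouse 14 (0.41%).

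The index set followed the dose, and the group at 1 μg/kg alone held both sets, so that at 3 to 30 μg/kg a set and a dose cannot be told apart within a group. At 1 μg/kg mouse 41, of the first set, had the highest Dbp, Tef, Hlf, Ciart and Bhlhe41 and the lowest Nfil3 of the 3 mice. Its Bhlhe40, at 185.7 CPM against 192.7 and 189.0, was the lowest of the 3 and the nearest to vehicle. With the set as a term, 4 members were called at 1 μg/kg (0.0727% of all genes), Dbp, Tef, Hlf and Bhlhe41, and the calls of Nfil3 (log2 fold change −3.71, adjusted p = 0.0816) and Ciart (4.46, adjusted p = 0.0815) were lost. At 3 μg/kg the call of Hlf alone was kept (0.0121% of all genes), and Dbp (6.16, adjusted p = 0.0763), Tef (3.22), Nfil3 (−3.60) and Ciart (4.93) lost theirs. At 10 μg/kg Dbp, Hlf, Ciart and Bhlhe41 were called (0.352%), and Tef (3.41, adjusted p = 0.0505), Nfil3 (−3.48, adjusted p = 0.0927) and Bhlhe40 (0.58, adjusted p = 0.281) were not. At 30 μg/kg 6 were called (4.43%) and Bhlhe40 lost its call (0.59, adjusted p = 0.201), with Dbp at 5.75, Hlf at 5.19, Ciart at 4.62, Bhlhe41 at 4.32, Tef at 3.55 and Nfil3 at −3.45. In these fits the term was estimated within the 1 μg/kg group alone, from mouse 41 against the other mice of that dose. It therefore moved the differences of a gene at 3, 10 and 30 μg/kg by the same amount. Dbp went from 5.33 to 6.16 at 3 μg/kg, from 5.45 to 6.28 at 10 and from 4.93 to 5.75 at 30 μg/kg. The differences of these 6 were larger in size with the term at all 4 doses. That follows from the levels of mouse 41 and does not test each dose separately. With mouse 14 left out as well 6 members were called at each of 3, 10 and 30 μg/kg, all but Bhlhe40 and Rora. Of all genes 0.142%, 0.861% and 5.08% were called there. These fits carry the same shift from mouse 41. Without mouse 14, Bhlhe41 at 3 μg/kg was 3.86 with the term and 1.93, not called, without the term.

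The core loop changed at the same doses. Of 16 core clock genes tested, chosen as the textbook members, 4 were called higher and 3 lower at 1 μg/kg, 6 higher and 3 lower at both 3 and 10 μg/kg, and 7 higher with 4 lower at 30 μg/kg, against the shares of all genes given above. The median log2 fold change of the list at 30 μg/kg was 0.37 (all genes −0.0022). The genes called higher at 30 μg/kg included the E-box driven repressors Per1 (1.55), Per2 (3.00), Per3 (2.32), Cry2 (1.36), Nr1d1 (1.57) and Nr1d2 (1.78). Those called lower were the activators Arntl (−2.86), Npas2 (−2.18) and Clock (−0.66), and Rorb (−0.78). Cry1 was lower at 1, 3 and 10 μg/kg (−1.58, −1.31 and −1.13) and was not called at 30 μg/kg (−0.69, adjusted p = 0.135).

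Genes reported as PAR bZIP targets in liver, kidney or gut were listed to see whether D-box output moved with its regulators. Of 8 listed, 7 were tested, and Cyp2a5 was below the filter on low counts. None was called at 1 μg/kg, where 1 (Usp2) had an unadjusted p under 0.05, as did 9.8% of all genes. This list was tested with edgeR alone. Usp2, a clock-regulated ubiquitin protease, was called at 3 μg/kg (1.69, SE 0.29, adjusted p = 0.00395), 10 and 30 μg/kg (1.79, SE 0.29, adjusted p = 0.000485). At 30 μg/kg 4 were called higher (2.95% of all genes) and 0 lower (3.21%), Usp2 with Cyp2b10 (3.46, SE 0.94, adjusted p = 0.0202), Alas1, the first enzyme of haem synthesis (0.84, SE 0.27, adjusted p = 0.0486), and Por, the P450 reductase (0.61, SE 0.15, adjusted p = 0.0112). The intestinal peptide transporter gene Slc15a1 (0.95, adjusted p = 0.263), the drug exporter gene Abcb1a (0.42, adjusted p = 0.0479, under the fold threshold) and Nr1i3 (0.82, adjusted p = 0.312) were not called. All 7 tested had a positive slope over dose rank past an adjusted p of 0.05, as did 11.8% of all genes, and their median log2 fold change at 30 μg/kg was 0.84 (all genes −0.0022).

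**Figure D4:**
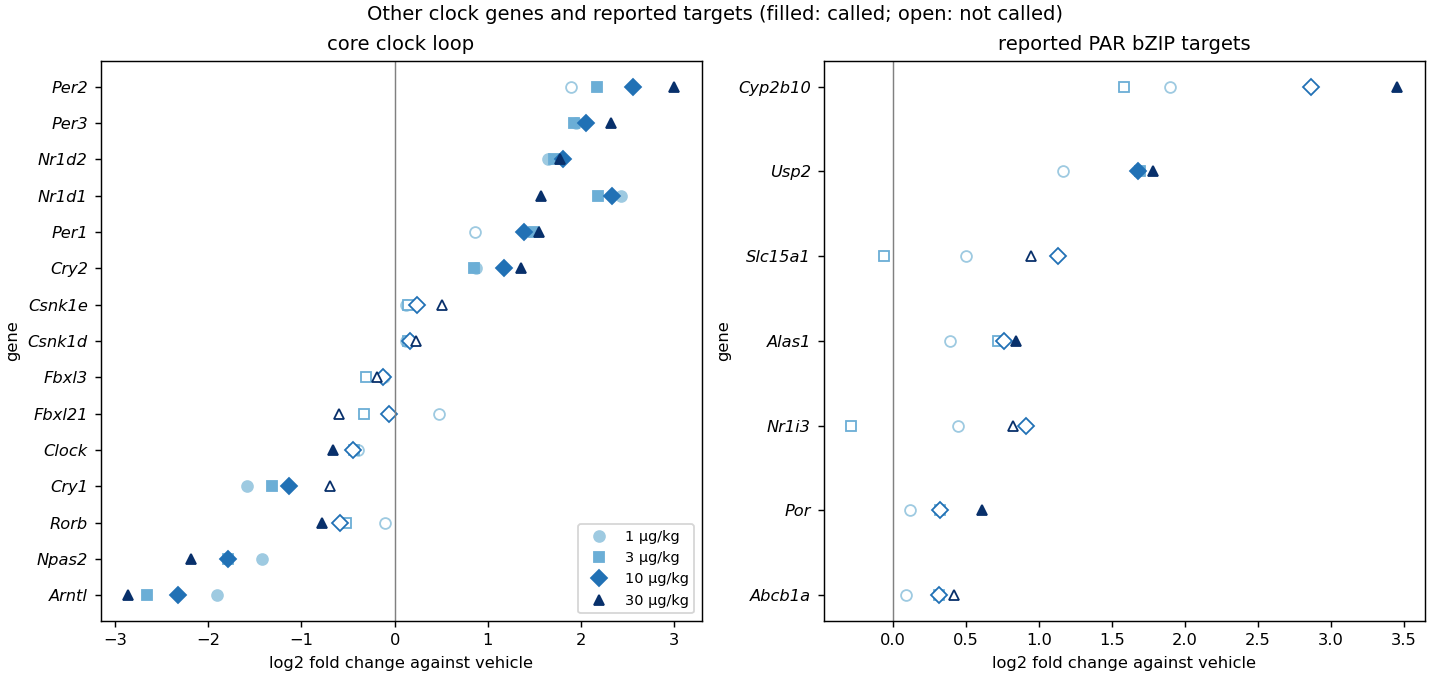
Log2 fold change against vehicle (horizontal axis) of core clock genes and of reported PAR bZIP targets (vertical axis) at 1, 3, 10 and 30 μg/kg TCDD, filled where called by edgeR (n = 3 mice a group). Per, Nr1d and Cry2 genes lie to the right and Arntl and Npas2 to the left at all 4 doses, and 4 of the 7 targets are filled at 30 μg/kg.

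The genes most like Dbp over the 27 mice were ranked by Pearson's r of log2 CPM among 14558 genes with a mean of at least 1 CPM, without a test, since the mice share dose groups and mouse 14. First was Nr1d2 (r = 0.979), then ENSMUSG00000085214, an identifier without a symbol in the tables used (0.962), Nr1d1 (0.936), Cipc, whose product inhibits CLOCK (0.929), and the annexin gene Anxa7 (0.924). Within the 16 mice of the first index set these were 0.962, 0.927, 0.935, 0.865 and 0.863, and within the 11 of the second 0.608, 0.645, 0.705, 0.583 and 0.154. Those most like Nfil3 were the immediate early gene Ier5 (0.902), Leo1 (0.900), Zfand5 (0.894), Npas2 (0.885) and Tmem252 (0.876). Within the first set these were, in the same order, 0.855, 0.770, 0.867, 0.915 and 0.752, and within the second 0.255, 0.725, −0.19, −0.30 and 0.489, on 14 to 36 reads of Nfil3.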

How the data were processed

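RNA from colonic epithelium of 27 male mice (9 groups of 3) was sequenced after preparation with an Ovation Mouse RNA-Seq kit. The authors deposited raw counts per gene for each mouse. The submitters' processing notes name GRCm38, FastQC 0.11.3, Trimmomatic 0.33, TopHat2 2.1.0, SAMtools 1.2.0, HTSeq 0.6.1 and DESeq, without roles, and strand use is not given in the sources used here. Reads in no feature (29.1 to 33.3% of each table) and with several alignments (30.7 to 37.1%) were left out of library sizes. A minimum count of 10 in edgeR's filterByExpr left 16496 genes for the quasi-likelihood fits with TMM factors (edgeR 4.0.16 in R 4.3.3). Ratios and levels use TMM-scaled CPM, per kb of GENCODE M21 exon where genes are compared. Log2 CPM for the ranking used a prior count of 2. SEs were derived from the fold change and F statistic, so the 95% intervals are approximate. DESeq2 1.42.0 and limma 3.58.1 (voom) were alternatives, as were RLE factors, no filter, an index term, 2-group fits, log10 dose and leaving out each mouse. The fits were tested on simulated counts. Mice within a group are separate animals, and no pair agreed within sampling noise (χ2 per degree of freedom at least 5.84 over 27 pairs). The index set was read from the order in which barcodes repeat. Genes named were the 8 members, core clock genes called at 30 μg/kg, every reported target tested, the 5 genes most like Dbp and Nfil3, and Cyp1a1. Among the core clock genes, 1 was left out of the text and figure, though it is in the counts. Cry1 and Sphk2 were named after their values were seen. Members and lists were chosen with earlier results of these data known.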

Additional observations from a re-analysis of the deposited data

How the results depend on the processing

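Counts of members called stayed within 1.5 times the reported count in 527 of the recomputed counts, and rose beyond that in 9 and fell beyond it in 11. A count of 0 in both fits was taken as unchanged. Most comparisons of groups without 1 mouse removed a mouse in neither group. The 527 thus says little about the counts above 0. Of the values of single members 1299 kept their sign and side of the threshold, 67 lost a call, 24 gained one and 7 changed sign. RLE size factors, an adjusted p alone and log10 of dose changed no count. Without the filter on low counts there was 1 call at 0.01 μg/kg (Dbp) and 7 at 1 μg/kg, and DESeq2 gave 1 at 0.01 μg/kg and 6 at 1 μg/kg. It left the adjusted p of 2 member tests undefined. Fits of only the 2 groups compared gave 2 at 0.3 μg/kg and 2 from 0.3 to 1 μg/kg. Limma voom by posterior probability gave 1 (Tef) at 1 μg/kg and 3 each at 3, 10 and 30 μg/kg. The index set as a term left 1 call at 3 μg/kg (Hlf) and 0 slopes. With mouse 14 also left out there were 2 at 0.3 μg/kg, a comparison within the first index set that the term could not alter. That fit and the fits within an index set were chosen after seeing the data. Slopes numbered 0 in the first set, 4 there without mouse 14 and 1 in the second set. Why these counts moved was not tested.

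Leaving out each of the 27 mice in turn gave 0 to 2 members at 0.3 μg/kg, 1 to 5 at 1 μg/kg, 4 to 7 at 10 μg/kg, 5 to 7 at 30 μg/kg, 0 to 1 from 0.1 to 0.3 μg/kg and 0 to 4 from 0.3 to 1 μg/kg. Fits without a mouse of a group not compared were added after seeing the data. The upper values are those without mouse 14 (also without mouse 11 or 25 at 1 μg/kg, without mouse 09, 41, 43 or 66 at 10 μg/kg, and the reported count at 30 μg/kg), and the 1 at 1 μg/kg is that without vehicle mouse 02 or 04. The sign turned in values that were not called or lost their call. Rora at 30 μg/kg was −0.0675 with the index term and −0.0673 without mouse 14 as well, and the slopes in the second set were 0.088 for Nfil3 and 0.0927 for Rora. Without single mice Rora ranged from −0.14 to 0.162 at 3 μg/kg and from −0.207 to 0.392 at 30 μg/kg, and its slope from −0.0359 to 0.00301. No paired analysis was possible because every mouse carries a number of its own.

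Depth limits Hlf, Bhlhe41 and Ciart, which had at most 9 reads in a vehicle mouse, and Nfil3 at 1 μg/kg and above. The barcode set follows the dose, and the hour at which each mouse was collected is not given in the sources used here.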
